A study of Mus musculus with 12 samples.

Results

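The genes described here differed between CD4-cre Ets1 flox/flox and Ets1 flox/flox mice in the same direction in both of the T cell types that were sequenced. For each gene the difference cKO minus WT was taken on the log2(FPKM + 1) scale in T follicular helper (TFH) cells and in non-TFH cells, and the mean of both was the contrast of interest. FPKM is the number of fragments assigned to a gene adjusted for transcript length and for the library's mapped fragments. A gene was kept when it reached 1 FPKM in at least 3 libraries, and it was described when the cKO and the WT libraries did not overlap, in the same direction, in both cell types. Such genes are called apart below, a description that sets no limit on false calls. They numbered 1842 of 11022 tested genes, which is 16.7%, and 1051 were higher in cKO (9.54%) while 791 were lower (7.18%).

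The cells were sorted from spleens of C57BL/6 mice. TFH cells were CD4+CXCR5+PD-1+, and non-TFH cells were CD4+ and lacked CXCR5 and PD-1. WT stands for libraries labelled Ets1 flox/flox, which carry the floxed alleles without Cre, and cKO for libraries labelled CD4-cre Ets1 flox/flox. The 4 groups (WT TFH, cKO TFH, WT non-TFH and cKO non-TFH) had 3 libraries each. The age and sex of the mice, any immunization and whether the libraries of a group came from separate animals are not in the labels. The p-values therefore measure the spread between these libraries, which may be technical. Sex-linked genes, given below, did differ between the libraries of WT TFH cells and between those of cKO non-TFH cells. The WT mice carried no Cre transgene, so an effect of the transgene and an effect of the deletion cannot be told apart. The CD4 promoter that drives this Cre is active from the CD4+CD8+ thymocyte stage, so the deletion precedes the split into CD4 and CD8 T cells. Cells that never expressed CD4 keep an intact Ets1 gene.

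Ets1 is the founding member of the ETS family, transcription factors that bind DNA through a conserved winged helix-turn-helix domain at sites with a GGAA core. It is expressed highly in resting T cells and is known for acting together with Runx factors at T cell genes, among them the receptor chain genes. TFH cells are the CD4 T cells that enter B cell follicles and help germinal centre B cells, a program that depends on the repressor Bcl6.

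The Ets1 transcript did not follow the labels. Ets1 (chromosome 9, 32696024 to 32757820, mm10) stood at 171, 204 and 216 FPKM in the WT TFH libraries and at 224, 271 and 266 in the cKO TFH libraries. In non-TFH cells Ets1 stood at 413, 413 and 404 FPKM in the WT libraries and at 415, 411 and 381 in the cKO libraries. The cKO TFH libraries were all above the WT TFH libraries, and the non-TFH groups overlapped. The mean difference was 0.17 ± 0.070 log2 (SE; adjusted p 0.0819), and exact two-sided permutation tests gave p = 0.1 in TFH cells, the smallest value that 3 libraries against 3 allow, and p = 0.8 in non-TFH cells. The gene-level value counts all exons and does not show whether the floxed part is missing from the transcript. Unnamed loci overlapped Ets1 in 8 libraries and reached 289 FPKM there. Every direction below is therefore that of the libraries labelled cKO against those labelled WT.

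The libraries were also checked for what else they held. Pdcd1, which encodes PD-1, ranged from 317 to 381 FPKM in WT TFH and 604 to 708 in cKO TFH libraries and from 1.49 to 1.65 and 1.4 to 1.56 in the non-TFH groups, so the sort is visible in both genotypes. The summed level of 16 macrophage and monocyte markers was 1909 to 4031 FPKM in WT TFH and 1005 to 1140 FPKM in cKO TFH libraries, but 50.5 to 104 in WT non-TFH and 149 to 217 in cKO non-TFH libraries. These markers were thus lower in cKO TFH and higher in cKO non-TFH libraries. Ctsb made up most of the sum in all groups but WT TFH. Of 19 tested, 3 passed the test of the mean contrast higher (15.8%, near the 19.1% of all tested genes) and 11 lower (57.9% beside 14.8%). None of the 16 summed was at 0 in all libraries of a group. Summed B cell markers stood at 102 to 113 FPKM in WT TFH and 54.0 to 58.6 in cKO TFH libraries, and at 2.0 to 7.45 in non-TFH libraries, where Pax5 and Cd72 were at 0 in the cKO group. The Y-linked gene Ddx3y was at 0 in all 3 cKO TFH libraries, at 33.6, 2.22 and 5.29 FPKM in WT TFH and at 40.6 to 68.3 FPKM in the 5 non-TFH libraries with a value. Xist, expressed from the inactive X chromosome, was at 14.9 to 23.4 FPKM in cKO TFH libraries and at 0, 16 and 13.7 FPKM in WT TFH. WT TFH replicates 2 and 3 thus held both Xist and Ddx3y, and the WT TFH libraries differed in these sex-linked genes. Replicate 1 of cKO non-TFH also held both Xist (19.7 FPKM) and Ddx3y (41.8 FPKM). In the other non-TFH libraries with a value, Xist was at 0.0831 to 1.81 FPKM. Ddx3y and Kdm5d, both Y-linked, are formally among the genes apart and lower. Without the genes of chromosomes X and Y, 1014 genes were apart and higher and 777 apart and lower. Ddx3y separated all WT TFH from all cKO TFH libraries, and the part of sex in genes of other chromosomes was not tested. One table, WT non-TFH replicate 1, ends within chromosome X. Unnamed assembled loci numbered 12338 to 25171 in WT TFH, 7855 to 10233 in cKO TFH and 6803 to 8549 in non-TFH libraries. With this number in the model, 2413 genes passed limma's test of the mean contrast in place of the 3727 given next. In such bulk samples, fewer cells of a type and less RNA per cell cannot be told apart.

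Across all 11022 genes the mean contrast passed the test in 3727 genes (33.8%; limma, adjusted p under 0.05), with 2100 higher (19.1%) and 1627 lower (14.8%) in cKO. Of these, 3189 had the same sign in both cell types and 538 had opposite signs. Of the 1842 genes apart, 1768 also passed this test, which uses the same values and is no independent check. The 1051 genes apart and higher had a median difference of 0.71 log2 in TFH and 0.55 in non-TFH cells, and the 791 genes apart and lower of -0.83 and -0.62, whereas the median of all tested genes was 0.034. Unless a cell type is named, rose and fell refer to the mean contrast. Among the genes named with values 124 passed that test, and 33 of them did not pass the test within at least 1 cell type. A difference of at least 1 log2 in both cell types was seen in 303 genes, 136 higher and 167 lower. When each cell type was fitted on its own, only 878 genes were called in the same direction in both.

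**Figure D1:**
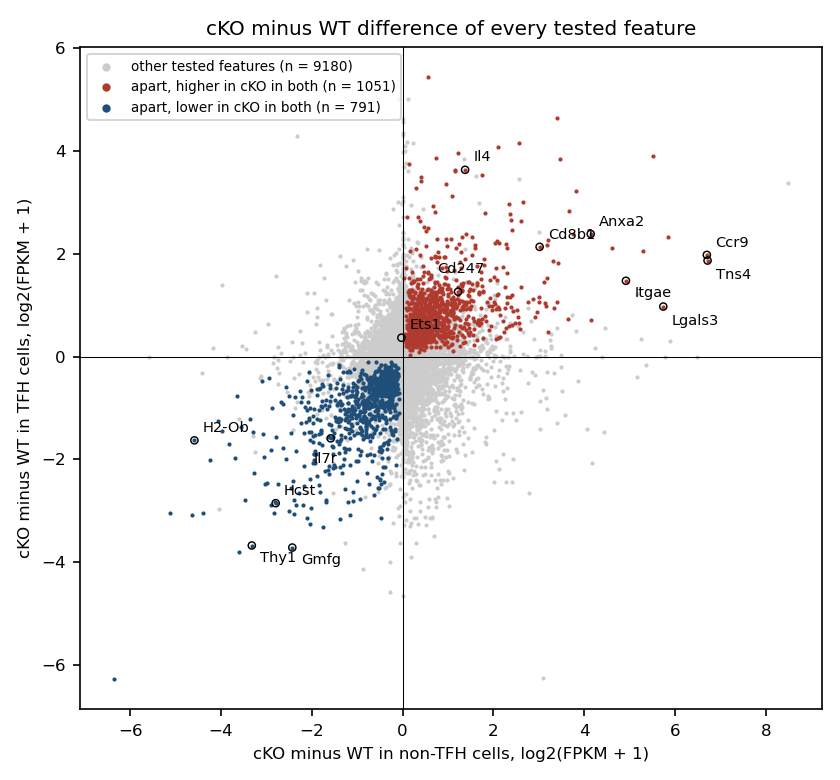
Difference cKO minus WT on the log2(FPKM + 1) scale in non-TFH cells (x axis) and in TFH cells (y axis) for each of the 11022 tested genes. Red points are the 1051 genes apart and higher in both cell types, blue points the 791 apart and lower, grey points all others, and black circles mark named genes. Thy1, Gmfg and Hcst sit far down on both axes, and Tns4, Ccr9 and Lgals3 lie further out on the non-TFH axis than on the TFH axis.

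The differences of both cell types were weakly related. Across genes, the differences of both cell types correlated with Pearson's r = 0.30 and a Spearman rank correlation of 0.30 over 11022 genes, given as a description because the genes share the same libraries and are not independent. In TFH cells 37.8% of tested genes had WT and cKO libraries apart, and in non-TFH cells 52.1%. Apart in opposite directions were 228 genes higher in TFH and lower in non-TFH cells and 415 genes the other way round. Genes at higher levels were apart more often. The share was 10.1% of the 1894 genes whose highest group mean was under 5 FPKM and 30.2% of the 1297 genes at 100 FPKM or more. The share apart ran from 12.4% on chromosome 5 to 20.9% on chromosome 6, and it was 17.9% on chromosome 9, which carries Ets1. At the edge of the rule, Tmem168 was just inside with a gap of 0.00015 log2 between the nearest libraries, and Cope was just outside with an overlap of 0.00004.

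The 15 genes with the largest fall in both cell types were led by A630023P12Rik, Ctsw, Thy1, Atp1b1 and Ckb. A630023P12Rik, a transcript without a common gene name (chromosome 5, 110514713 to 110525979), stood at 83.6, 111 and 66.8 FPKM in the WT TFH libraries and at 0, 0 and 0.372 in the cKO TFH libraries. In non-TFH cells A630023P12Rik stood at 78.5, 167 and 54.1 FPKM in the WT libraries and at 0, 0.16 and 0.161 in the cKO libraries. All WT libraries lay above 50 FPKM and all cKO libraries below 0.4, and the mean difference was -6.31 ± 0.24 log2 (SE; adjusted p 1.05e-08). Thy1, the GPI-anchored surface glycoprotein used to mark T cells (chromosome 9, 44043384 to 44048581), stood at 42.3, 28.1 and 27.6 FPKM in the WT TFH libraries and at 1.54, 1.3 and 1.95 in the cKO TFH libraries. In non-TFH cells Thy1 stood at 301, 298 and 301 FPKM in the WT libraries and at 29, 31.3 and 27.1 in the cKO libraries. Its level in cKO was 0.0488 of WT in TFH and 0.0972 of WT in non-TFH cells, with a mean difference of -3.50 ± 0.11 log2 (SE; adjusted p 2.35e-09). Ctsw, cathepsin W, a protease of T and NK cells, stood at 19.3, 43.5 and 30.5 FPKM in the WT TFH libraries and at 0, 3.26 and 1.43 in the cKO TFH libraries. In non-TFH cells Ctsw stood at 55.7, 45.7 and 45.9 FPKM in the WT libraries and at 2.76, 2.3 and 4.7 in the cKO libraries. The WT libraries were above the cKO libraries in both cell types, and the mean difference was -3.70 ± 0.32 log2 (SE; adjusted p 8.8e-06). Atp1b1, a beta subunit of the sodium-potassium pump, stood at 12.1, 15.1 and 11.9 FPKM in the WT TFH libraries and at 1.34, 0 and 1.02 in the cKO TFH libraries. In non-TFH cells Atp1b1 stood at 56.6, 66.9 and 49.2 FPKM in the WT libraries and at 0.63, 0.549 and 0.829 in the cKO libraries. The fall was larger in non-TFH cells, at -5.13 log2 against -3.05 in TFH cells.

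Hcst, which encodes DAP10, the adaptor that signals for the receptor NKG2D, stood at 366, 352 and 367 FPKM in the WT TFH libraries and at 49.5, 51.3 and 46.8 in the cKO TFH libraries. In non-TFH cells Hcst stood at 147, 151 and 156 FPKM in the WT libraries and at 22.6, 20.9 and 19.4 in the cKO libraries. The fall was nearly the same size in both cell types, and its mean difference of -2.82 ± 0.056 log2 (SE; adjusted p 4.2e-11) had a small error. Gmfg, a regulator that debranches Arp2/3 actin networks, stood at 116, 121 and 164 FPKM in the WT TFH libraries and at 8.1, 12.5 and 7.4 in the cKO TFH libraries. In non-TFH cells Gmfg stood at 152, 154 and 157 FPKM in the WT libraries and at 29.5, 29.3 and 25 in the cKO libraries. Every WT library was above 100 FPKM and every cKO library below 30. NK cells also express Hcst and Ctsw. Of 4 tested NK cell markers, 2 passed the test of the mean contrast higher (50% beside 19.1% of all tested genes) and none lower. The median of these markers was -1.09 log2 in TFH but 0.91 in non-TFH cells, so the mean contrast covers opposite signs. The sum of the 3 with a value in every library was mostly Il2rb, which T cells also express, so it is not read here. Of 11 tested CD8 and cytotoxic markers, many of which NK cells carry, 6 passed higher and 4 lower, shares of 54.5% and 36.4% beside 19.1% and 14.8% of all tested genes. Klrd1, a chain of NK cell receptors, was apart lower with 5.92 to 9.94 FPKM in WT TFH and 1.27 to 2.87 in cKO TFH libraries and 23.3 to 26.9 in WT non-TFH and 1.24 to 2.77 in cKO non-TFH libraries. Klrk1, which encodes NKG2D, the partner of Hcst, stood at 2.69 to 3.45 FPKM in WT TFH and 0.167 to 0.832 in cKO TFH libraries and 1.12 to 2.2 in WT non-TFH and 0.696 to 1.14 in cKO non-TFH libraries. Ncr1, an NK cell receptor, went the other way and was apart higher, at low levels. It stood at 0 to 0.34 FPKM in WT TFH and 0.726 to 2.17 in cKO TFH libraries. In non-TFH cells Ncr1 stood at 0.518 to 0.851 FPKM in the WT libraries and at 1.06 to 1.99 in the cKO libraries. The part of NK or cytotoxic cells in Hcst and Ctsw was not tested. Traf1, an adaptor of TNF receptors, stood at 112, 82.5 and 119.9 FPKM in the WT TFH libraries and at 20.1, 13.6 and 20.7 in the cKO TFH libraries. In non-TFH cells Traf1 stood at 50.9, 42.7 and 49.9 FPKM in the WT libraries and at 3.79, 11.5 and 2.49 in the cKO libraries. Among the cKO non-TFH libraries, replicate 2 was above the others but still below every WT library. Psen2, a catalytic subunit of gamma-secretase, the protease that cleaves Notch, stood at 62.8, 54.3 and 48.9 FPKM in the WT TFH libraries and at 6.16, 6.67 and 5.23 in the cKO TFH libraries. In non-TFH cells Psen2 stood at 29.3, 29.7 and 30.6 FPKM in the WT libraries and at 4.19, 4.63 and 4.5 in the cKO libraries. Psen2 fell by 2.75 log2 on average. Tecpr1, a factor in the fusion of autophagosomes with lysosomes, stood at 38.6, 36.3 and 35.6 FPKM in the WT TFH libraries and at 6.43, 6.12 and 5.09 in the cKO TFH libraries. In non-TFH cells Tecpr1 stood at 156, 127 and 133 FPKM in the WT libraries and at 17.5, 15.3 and 17.2 in the cKO libraries. Arhgap9, a GTPase-activating protein, ranged from 55.2 to 71.9 FPKM in WT TFH and from 7.54 to 13.7 in cKO TFH libraries, and from 162 to 223 in WT non-TFH and 34.8 to 36.6 in cKO non-TFH libraries. Tecpr1 fell by 2.72 and Arhgap9 by 2.42 log2 on average. Ncf4, the p40 subunit of the phagocyte NADPH oxidase, ranged from 44.1 to 53.7 FPKM in WT TFH and from 4.28 to 5.77 in cKO TFH libraries, and from 29.9 to 31.2 in WT non-TFH and 3.9 to 5.78 in cKO non-TFH libraries. Ckb, brain-type creatine kinase, ranged from 28.2 to 33.5 FPKM in WT TFH and from 2.17 to 3.66 in cKO TFH libraries, and from 11.9 to 15 in WT non-TFH and 0.49 to 1.29 in cKO non-TFH libraries. The remaining ones were Slc14a1, a urea transporter (-2.82 log2), Eya2, a phosphatase and transcriptional coactivator (-2.62 log2), and Acsbg1, an acyl-CoA synthetase (-2.51 log2), all at under 20 FPKM in WT.

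**Figure D2:**
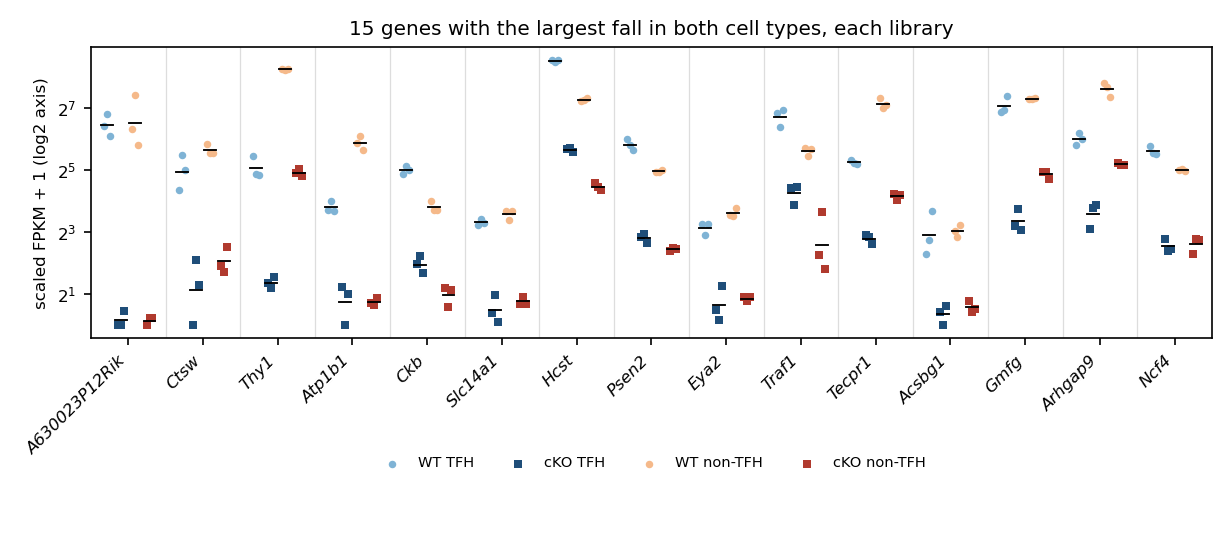
Scaled FPKM + 1 on a log2 axis in each of the 12 libraries for the 15 genes with the largest fall in both cell types, with circles for WT, squares for cKO and a black bar at each group's mean on the log scale. In every one of the 15 genes the 6 cKO libraries lie below the WT libraries of their own cell type, and Hcst and Arhgap9 keep the highest levels in cKO.

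Promoter sequence was looked at for these genes because ETS factors bind at GGAA. Windows of 250 bases before and 50 bases after a gene's start were taken from RefSeq (GRCm38.p6, the same build as mm10) for 7971 of the 11022 tested genes and 1334 of the 1842 genes apart. They were searched on both strands for CCGGAAG, for CAGGAAG (both of the ETS type; on 1 strand they cannot overlap, while opposite strands can share bases) and for TGTGGTT, a Runx-type motif. Windows of 3 genes that fell strongly and 1 that rose strongly are shown, with any match in capitals, 5′ to 3′ along the gene's own strand and ending at the base before its start. Psen2 (chr1:180256301-180256550, minus strand) and Tecpr1 (chr5:144223616-144223865, minus strand) fell in cKO and are shown for their CAGGAAG. Gmfg (chr7:28437219-28437468, plus strand), which also fell, and Anxa2 (chr9:69453433-69453682, plus strand), which rose, are shown as windows without either ETS-type motif.
Psen2: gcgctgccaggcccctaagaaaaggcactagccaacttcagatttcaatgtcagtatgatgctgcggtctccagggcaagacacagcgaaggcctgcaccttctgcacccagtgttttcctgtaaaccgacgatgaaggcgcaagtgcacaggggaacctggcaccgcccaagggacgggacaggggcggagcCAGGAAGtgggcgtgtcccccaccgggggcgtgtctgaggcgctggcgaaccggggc
Tecpr1: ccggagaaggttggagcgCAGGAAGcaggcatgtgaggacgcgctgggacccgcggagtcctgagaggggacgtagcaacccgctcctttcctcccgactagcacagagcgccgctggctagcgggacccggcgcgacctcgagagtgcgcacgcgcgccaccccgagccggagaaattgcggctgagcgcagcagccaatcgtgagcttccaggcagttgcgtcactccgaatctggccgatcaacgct
Gmfg: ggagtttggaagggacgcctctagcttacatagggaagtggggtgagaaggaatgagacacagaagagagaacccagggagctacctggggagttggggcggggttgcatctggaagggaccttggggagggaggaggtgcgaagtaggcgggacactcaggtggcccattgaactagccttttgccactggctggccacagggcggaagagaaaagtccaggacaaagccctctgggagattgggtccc
Anxa2: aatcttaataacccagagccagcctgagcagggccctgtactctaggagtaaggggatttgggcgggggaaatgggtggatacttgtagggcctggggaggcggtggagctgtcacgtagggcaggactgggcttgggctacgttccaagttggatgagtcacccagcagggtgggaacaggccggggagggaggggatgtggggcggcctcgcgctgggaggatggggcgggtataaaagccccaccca

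The first base of CAGGAAG lies 57 bases before the start in Psen2 and 232 in Tecpr1. The RefSeq starts of Tecpr1 and Gmfg are 22 bases from the start of the deposited entry, and those of Psen2 and Anxa2 are at the same base. Of the 15 strongly lower genes 9 had a window, and 5 of them held CAGGAAG. Of the 15 strongly higher genes 13 had a window, and 1 (Cela1) held it. These 30 genes were chosen for their change, and over all genes apart the shares with CAGGAAG lay closer together. CAGGAAG was in 15.3% of 562 windows of lower genes, in 10.5% of 772 windows of higher genes and in 12.8% of all 7971 windows. CCGGAAG was in 13.2%, 18.4% and 20% of the same windows, and TGTGGTT in 3.02%, 4.15% and 3.75%. Genes apart by at least 1 log2 in both cell types, also chosen for their change, lay further from each other in CAGGAAG. It was in 20.7% of 116 windows of lower and 10.8% of 93 windows of higher genes. In these windows CCGGAAG was in 8.62% and 5.38%, and TGTGGTT in 5.17% and 2.15%. A match is a run of letters and not a measured binding site.

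The 15 genes with the largest rise were mostly genes at low level in WT T cells. Fbln1, fibulin-1, a protein of the extracellular matrix (chromosome 15, 85206008 to 85286529), stood at 0.758, 0.444 and 1.73 FPKM in the WT TFH libraries and at 27, 17.9 and 37.3 in the cKO TFH libraries. In non-TFH cells Fbln1 stood at 1.2, 1.04 and 0.631 FPKM in the WT libraries and at 22, 19.6 and 19.6 in the cKO libraries. The groups did not overlap and the mean difference was 3.65 ± 0.20 log2 (SE; adjusted p 9.98e-08). Lgals7, galectin-7, a lectin of epithelia, stood at 0.153, 0.634 and 1.89 FPKM in the WT TFH libraries and at 46, 47 and 37 in the cKO TFH libraries. In non-TFH cells Lgals7 stood at 0.169, 0.172 and 0 FPKM in the WT libraries and at 9.95, 13.1 and 9.6 in the cKO libraries. Lgals7 was below 2 FPKM in every WT library and above 9 in every cKO library. Pdlim4, a PDZ-LIM protein of the actin cytoskeleton, stood at 2.78, 8.19 and 7.17 FPKM in the WT TFH libraries and at 40.6, 63.3 and 55.1 in the cKO TFH libraries. In non-TFH cells Pdlim4 stood at 36.9, 43.5 and 43.9 FPKM in the WT libraries and at 253, 267 and 269 in the cKO libraries. Pdlim4 was higher in non-TFH than in TFH cells in both genotypes and rose by 2.83 log2 on average. Anxa2, annexin A2, a calcium-dependent membrane-binding protein (chromosome 9, 69453683 to 69491785), stood at 166, 139 and 168 FPKM in the WT TFH libraries and at 882, 771 and 833 in the cKO TFH libraries. In non-TFH cells Anxa2 stood at 4.35, 5.36 and 6.11 FPKM in the WT libraries and at 107, 121 and 100.3 in the cKO libraries. Its rise was larger in non-TFH cells, at 4.14 log2 against 2.39. Ddc, DOPA decarboxylase, stood at 1.74, 4.25 and 2.65 FPKM in the WT TFH libraries and at 87.4, 49.5 and 65.1 in the cKO TFH libraries. In non-TFH cells Ddc stood at 0.223, 0.188 and 0.163 FPKM in the WT libraries and at 5.66, 7.17 and 5.44 in the cKO libraries. Ddc rose in both, and more in TFH cells (4.15 against 2.57 log2). Penk, the enkephalin precursor, stood at 44.2, 64.6 and 47.6 FPKM in the WT TFH libraries and at 316, 203 and 202 in the cKO TFH libraries. In non-TFH cells Penk stood at 0.432, 0.109 and 0.118 FPKM in the WT libraries and at 8.69, 18.8 and 5.77 in the cKO libraries. Penk was the most abundant of these in WT TFH cells after Anxa2, and it too rose in both cell types, with a mean difference of 2.67 ± 0.24 log2 (SE; adjusted p 7.26e-06).

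Hey1, a repressor that is a target of Notch, stood at 2.42, 2.03 and 1.58 FPKM in the WT TFH libraries and at 21.8, 19.8 and 17.5 in the cKO TFH libraries. In non-TFH cells Hey1 stood at 0.0975, 0.263 and 0.142 FPKM in the WT libraries and at 5.49, 4.91 and 4.58 in the cKO libraries. Ier3, an early response gene, ranged from 2.58 to 4.64 FPKM in WT TFH and from 19.6 to 34.8 in cKO TFH libraries, and from 0.0809 to 0.369 in WT non-TFH and 5.72 to 7.08 in cKO non-TFH libraries. Ier3 rose by 2.64 log2 in TFH and 2.60 in non-TFH cells, the most even pair of these rises along with AA414768. Kctd15, a BTB-domain protein, ranged from 0 to 0.525 FPKM in WT TFH and from 8.39 to 11.8 in cKO TFH libraries, and from 0.0297 to 0.0589 in WT non-TFH and 12.8 to 14.2 in cKO non-TFH libraries. Trpm1, a cation channel of retina and melanocytes, ranged from 1.8 to 3.06 FPKM in WT TFH and from 17.6 to 31.7 in cKO TFH libraries, and from 0.385 to 0.921 in WT non-TFH and 19.2 to 21.8 in cKO non-TFH libraries. Trpm1 and Kctd15 had cKO levels of similar size in both cell types. Cela1, an elastase, ranged from 16.4 to 21.1 FPKM in WT TFH and from 78 to 127 in cKO TFH libraries, and from 0.159 to 0.363 in WT non-TFH and 11.6 to 24.1 in cKO non-TFH libraries. Drc1, a subunit of the ciliary dynein regulatory complex, ranged from 0 to 0.355 FPKM in WT TFH and from 2.58 to 6.76 in cKO TFH libraries, and from 1.54 to 2.56 in WT non-TFH and 154 to 204 in cKO non-TFH libraries. Drc1 had the largest gap between the cell types, with 5.84 log2 in non-TFH against 2.32 in TFH cells. Metrnl, a secreted factor (2.66 log2), Fam71b (2.24 log2) and AA414768 (2.43 log2) complete the 15.

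**Figure D3:**
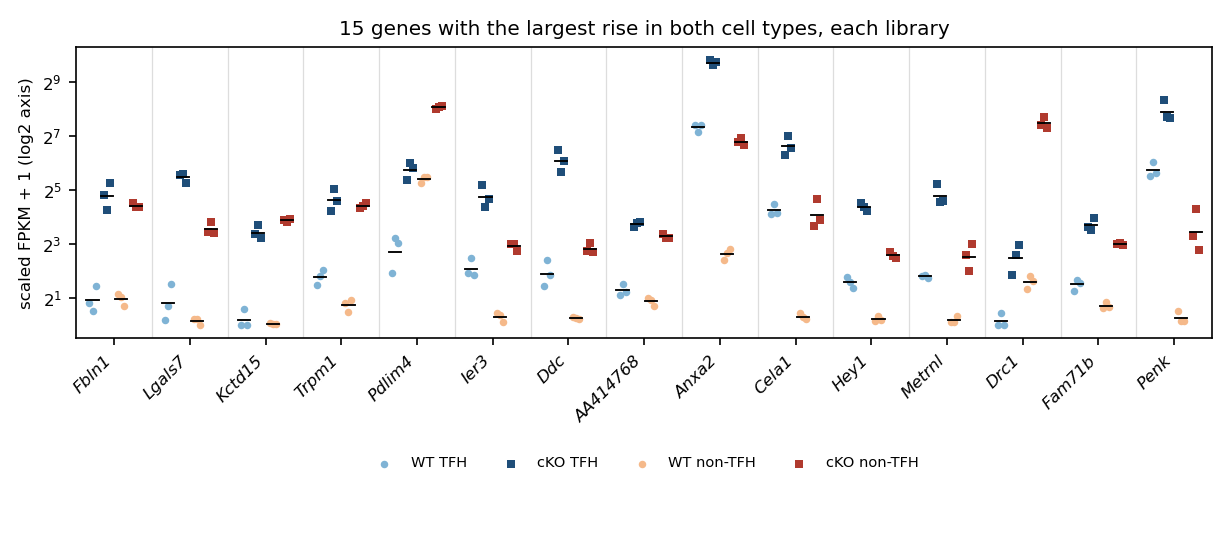
Scaled FPKM + 1 on a log2 axis in each of the 12 libraries for the 15 genes with the largest rise in both cell types, with circles for WT, squares for cKO and a black bar at each group's mean on the log scale. In each gene the cKO libraries lie above the WT libraries of their own cell type, and Anxa2 in TFH cells reaches the highest level of all.

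Of these 30 genes, 12 overlap another RefSeq gene and 20 overlap an unnamed locus in at least 1 library, so some of their fragments could have been assigned elsewhere. Of all 127 genes named with values, 77 overlap an unnamed locus, and in 6 (Bach2, Tox, Ets1, Fli1, Elk3 and Cd4) the mean level of these loci differed the opposite way by at least as many FPKM in 1 cell type. Genes listed at exactly 0 in a whole group were kept out of the ranking, since a 0 in such tables can be a failed estimate. Among them, Grhl3, a transcription factor of epithelia, stood at 0 in all 3 WT TFH libraries and at 13.4, 13.3 and 15.2 in the cKO TFH libraries. In non-TFH cells Grhl3 stood at 0 in all 3 WT libraries and at 42.8, 45.7 and 46.9 in the cKO libraries. No WT library had a value for Grhl3 above 0. 1810006J02Rik stood at 5.11, 8.85 and 4.49 FPKM in the WT TFH libraries and at 0 in all 3 cKO TFH libraries. In non-TFH cells 1810006J02Rik stood at 8.34, 9.56 and 12.6 FPKM in the WT libraries and at 0 in all 3 cKO libraries. Listed at 0 in all 6 cKO libraries and above 3 FPKM in all WT libraries was also Rhbdd3, a rhomboid-like protein. Il17rb, the receptor for IL-25, was listed at 0 in the WT non-TFH libraries and stood at 3.03 to 5.22 FPKM in the cKO non-TFH libraries. Fam217a was at 0 in all WT TFH libraries and at 1.39 to 6.56 FPKM in cKO TFH libraries, and 4930481A15Rik went the other way, to 0 in all cKO non-TFH libraries.

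Genes of the T cell receptor complex and its proximal signalling moved both ways. Of 27 genes in the list with an entry of their own, 7 passed the test higher (25.9%) and 12 lower (44.4%), against 19.1% and 14.8% of all genes. Apart were 6 higher (22.2% beside 9.54%) and 7 lower (25.9% beside 7.18%). The median difference of the list was 0.022 log2, against 0.034 for all tested genes. Cd247, the CD3 zeta chain (chromosome 1, 165788681 to 165871153), stood at 252, 274 and 258 FPKM in the WT TFH libraries and at 662, 591 and 633 in the cKO TFH libraries. In non-TFH cells Cd247 stood at 269.8, 289.9 and 269 FPKM in the WT libraries and at 667, 639 and 630.0 in the cKO libraries. Its level was 2.41 times WT in TFH and 2.34 times WT in non-TFH cells, and the difference of 1.24 ± 0.048 log2 (SE; adjusted p 1.34e-08) was nearly equal in both. Rasgrp1, a Ras activator downstream of diacylglycerol, stood at 49.4, 50.1 and 62.9 FPKM in the WT TFH libraries and at 113, 105 and 101 in the cKO TFH libraries. In non-TFH cells Rasgrp1 stood at 125, 106 and 110.1 FPKM in the WT libraries and at 228, 234 and 275 in the cKO libraries. The cKO libraries were above the WT libraries in both cell types. Plcg1, phospholipase C gamma 1, which makes diacylglycerol, stood at 27.2, 28.4 and 25.3 FPKM in the WT TFH libraries and at 12.8, 11 and 12.6 in the cKO TFH libraries. In non-TFH cells Plcg1 stood at 112, 102 and 102 FPKM in the WT libraries and at 38.8, 55.4 and 39.9 in the cKO libraries. Plcg1 fell by 1.16 log2. Cd5, an inhibitory surface receptor, stood at 309.9, 292 and 250.5 FPKM in the WT TFH libraries and at 193, 185 and 187 in the cKO TFH libraries. In non-TFH cells Cd5 stood at 285, 271 and 275 FPKM in the WT libraries and at 119, 122 and 118 in the cKO libraries. Cd2, a costimulatory adhesion receptor, and Cd3g, a CD3 chain, rose by 0.86 and 0.48 log2, while Vav1, a guanine nucleotide exchange factor, and Nfatc2, a calcium-regulated transcription factor, fell by 0.64 and 0.93 log2. Lcp2 and Dgkz were also apart and higher, and Nfatc1 and Dgka apart and lower.

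Of 10 tested genes of the CD4 and CD8 lineages, 6 passed the test higher and 3 lower, beside 19.1% and 14.8% of all tested genes. Apart were 5 higher (Cd8a, Cd8b1, Runx2, Cbfb and Tox; 50% beside 9.54%) and 2 lower (Zbtb7b and Runx3; 20% beside 7.18%). Cd8b1, the CD8 beta chain (chromosome 6, 71322765 to 71337451), stood at 10.3, 8.87 and 6.14 FPKM in the WT TFH libraries and at 34.1, 41.8 and 44.3 in the cKO TFH libraries. In non-TFH cells Cd8b1 stood at 14.7, 10.9 and 9.92 FPKM in the WT libraries and at 102, 107 and 96.1 in the cKO libraries. Its mean difference was 2.58 ± 0.13 log2 (SE; adjusted p 7.38e-08). Cd8a, the CD8 alpha chain, ranged from 1.44 to 2.01 FPKM in WT TFH and from 2.71 to 4.13 in cKO TFH libraries, and from 0.0444 to 0.172 in WT non-TFH and 0.179 to 0.31 in cKO non-TFH libraries. Cd8a stayed at or below 4.13 FPKM where Cd8b1 reached 107 FPKM, and the call of Cd8a was lost without WT TFH replicate 3 and WT non-TFH replicate 1 together. Of the 11 tested CD8 and cytotoxic markers, Cd8a and Cd8b1 included, 6 passed the test of the mean contrast higher and 4 lower. Within non-TFH cells the other markers went different ways. Eomes stood at 0.877 to 1.18 FPKM in WT non-TFH and 13.2 to 17.6 in cKO non-TFH libraries. Nkg7 stood there at 3.46 to 5.59 and 35.8 to 41.1 FPKM, and Gzma at 1.68 to 5.87 and 7.23 to 12.3. Gzmb, granzyme B, stood at 2.0 to 7.91 FPKM in WT TFH and 7.25 to 17 in cKO TFH libraries and 0.272 to 0.53 in WT non-TFH and 42.9 to 54.6 in cKO non-TFH libraries. Prf1, perforin, stood at 1.4 to 3.31 FPKM in WT TFH and 0.417 to 1.54 in cKO TFH libraries and 11.5 to 12.3 in WT non-TFH and 0.87 to 1.61 in cKO non-TFH libraries, and Klrd1, given above, was also lower. The part of CD8 or cytotoxic cells in Cd8b1 was not tested. Runx2, a Runx family factor, ranged from 0.449 to 0.627 FPKM in WT TFH and from 1.24 to 1.82 in cKO TFH libraries, and from 0.306 to 0.374 in WT non-TFH and 1.32 to 1.69 in cKO non-TFH libraries. Runx2 rose by 0.79 log2. Runx3, which sustains the CD8 lineage, ranged from 4.77 to 5.7 FPKM in WT TFH and from 1.38 to 3.28 in cKO TFH libraries, and from 15.1 to 16.3 in WT non-TFH and 11.1 to 14.1 in cKO non-TFH libraries. Zbtb7b, which encodes ThPOK, the factor of CD4 lineage choice, ranged from 6.82 to 9.91 FPKM in WT TFH and from 2.93 to 4.49 in cKO TFH libraries, and from 62 to 68.4 in WT non-TFH and 47.6 to 54 in cKO non-TFH libraries. Zbtb7b and Runx3, which act against each other in that choice, both fell, by 0.63 and 0.61 log2. Cd4 did not pass the test in either cell type, at -0.46 log2 in TFH (adjusted p 0.0519) and 0.43 in non-TFH cells (adjusted p 0.0916). An unnamed locus over Cd4 stood at 4.75 to 7.75 FPKM in WT TFH and 196 to 438 in cKO TFH libraries, and its part was not tested.

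Of 24 integrins and chemokine receptors, 9 passed the test higher (37.5%) and 7 lower (29.2%), beside 19.1% and 14.8% of all tested genes. Apart were 4 higher (16.7% beside 9.54%) and 2 lower (8.33%, near the 7.18% of all genes). Itgae, the integrin alpha E chain that binds E-cadherin, stood at 2.28, 4.61 and 5.4 FPKM in the WT TFH libraries and at 9.86, 15.5 and 13.1 in the cKO TFH libraries. In non-TFH cells Itgae stood at 1.87, 1.09 and 0.821 FPKM in the WT libraries and at 63.9, 78.1 and 57.8 in the cKO libraries. Every cKO library of Itgae was above the WT libraries of its cell type. Ccr9, the receptor for the gut chemokine CCL25, stood at 3.76, 4.89 and 5.29 FPKM in the WT TFH libraries and at 12.1, 16.1 and 47.6 in the cKO TFH libraries. In non-TFH cells Ccr9 stood at 0 in all 3 WT libraries and at 104, 97.3 and 108 in the cKO libraries. Ccr9 was listed at 0 in every WT non-TFH library, so no fold is given, and cKO TFH replicate 3 stood above the other cKO TFH libraries. Itgam, the integrin alpha M chain, which macrophages also carry, ranged from 0.979 to 1.93 FPKM in WT TFH and from 25.3 to 31 in cKO TFH libraries, and from 2.17 to 2.97 in WT non-TFH and 6.39 to 7.36 in cKO non-TFH libraries. Itga4, the integrin alpha 4 chain, stood at 27.6, 40.2 and 48.8 FPKM in the WT TFH libraries and at 21.9, 22.9 and 20.3 in the cKO TFH libraries. In non-TFH cells Itga4 stood at 78.2, 82.6 and 80.5 FPKM in the WT libraries and at 27.7, 23 and 28 in the cKO libraries. Itga4 fell by 1.18 log2. Itgam and the macrophage lysozymes Lyz1 and Lyz2, each with a value in 2 WT TFH libraries, were apart and higher in both cell types, while the summed macrophage markers were lower in cKO TFH libraries. Itgb1 was apart and higher, and Itga6 apart and lower.

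Actin and focal adhesion regulators went both ways, with 8 of 26 higher (30.8%) and 6 lower (23.1%) by the test, beside 19.1% and 14.8% of all tested genes. Apart were 6 higher (23.1% beside 9.54%) and 5 lower (19.2% beside 7.18%). Tns4, tensin 4, a focal adhesion protein, stood at 0.023, 0.057 and 0.0634 FPKM in the WT TFH libraries and at 2.71, 3.33 and 2.5 in the cKO TFH libraries. In non-TFH cells Tns4 stood at 0.335, 0.137 and 0.159 FPKM in the WT libraries and at 132, 122 and 124 in the cKO libraries. Tns4 was below 0.4 FPKM in every WT library and rose far more in non-TFH cells (6.72 log2) than in TFH cells (1.87 log2). Tln1, talin, which activates integrins, ranged from 48.8 to 97.8 FPKM in WT TFH and from 29.3 to 34 in cKO TFH libraries, and from 143 to 148 in WT non-TFH and 73.6 to 87.5 in cKO non-TFH libraries. Tmsb10, a thymosin that binds actin monomers, ranged from 797 to 1009.8 FPKM in WT TFH and from 1162 to 1461 in cKO TFH libraries, and from 1661 to 1955 in WT non-TFH and 2347 to 2737 in cKO non-TFH libraries. Coro1a, coronin 1A, fell by 0.26 log2, and Gmfg, described above, fell the most of the genes named from this list.

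Of 18 naive and quiescence genes 4 passed the test higher (22.2% beside 19.1% of all tested genes) and 6 lower (33.3% beside 14.8%), and only Bach2 was apart higher and Il7r and Actn1 apart lower, shares of 5.56% and 11.1% beside 9.54% and 7.18% of all tested genes. Il7r, the IL-7 receptor alpha chain, which sustains resting T cells (chromosome 15, 9492375 to 9530370), stood at 36.4, 51.2 and 32 FPKM in the WT TFH libraries and at 18.9, 9.7 and 10 in the cKO TFH libraries. In non-TFH cells Il7r stood at 274, 306 and 286 FPKM in the WT libraries and at 95.4, 82.8 and 110.3 in the cKO libraries. It fell by the same amount in both, -1.59 and -1.58 log2, with a mean of -1.59 ± 0.16 log2 (SE; adjusted p 2.04e-05). Bach2, a repressor that keeps T cells quiescent, ranged from 1.44 to 1.62 FPKM in WT TFH and from 2.08 to 4.2 in cKO TFH libraries, and from 25 to 27.3 in WT non-TFH and 28.2 to 30.5 in cKO non-TFH libraries. Bach2 lost its call without WT TFH replicate 3 and WT non-TFH replicate 1 together. Activation and memory genes had 12 of 20 higher and 5 lower by the test, and 8 were apart higher (galectins Lgals1 and Lgals3, the annexin Anxa2, the S100 genes S100a6, S100a10, S100a11 and S100a13, and Itgb1), with Cd44 and Anxa5 apart lower. The shares apart were 40% higher, and 10% lower beside the 7.18% of all genes. Lgals1, galectin-1, stood at 288, 258 and 270.0 FPKM in the WT TFH libraries and at 709.8, 1037 and 1227 in the cKO TFH libraries. In non-TFH cells Lgals1 stood at 45.1, 46.6 and 56.1 FPKM in the WT libraries and at 535, 561 and 504 in the cKO libraries. Lgals1 rose in both cell types, by 2.62 log2 on average. Lgals3, galectin-3, which macrophages also make in large amounts, stood at 26.5, 41 and 28.6 FPKM in the WT TFH libraries and at 94, 51.2 and 51.5 in the cKO TFH libraries. In non-TFH cells Lgals3 stood at 1.61, 1.61 and 1.93 FPKM in the WT libraries and at 169, 153 and 115 in the cKO libraries. Lgals3 rose in non-TFH cells from under 2 to over 100 FPKM and differed by 0.97 log2 in TFH against 5.74 in non-TFH cells. S100a6, a calcium-binding S100 protein, ranged from 189 to 199 FPKM in WT TFH and from 443 to 593 in cKO TFH libraries, and from 2.05 to 7.72 in WT non-TFH and 35.7 to 45.7 in cKO non-TFH libraries. Macrophage markers were lower in cKO TFH and higher in cKO non-TFH libraries, as given above, and their part in Lgals3, Anxa2 and the S100 genes was not tested. Cd44, the hyaluronan receptor of memory T cells, ranged from 61.8 to 72.6 FPKM in WT TFH and from 36.4 to 55.9 in cKO TFH libraries, and from 8.45 to 9.1 in WT non-TFH and 4.36 to 5.79 in cKO non-TFH libraries. Cd44 thus fell where the galectins rose, by 0.63 log2. Unnamed loci over Cd44 stood at 214710 to 313247 FPKM in WT TFH and 1191 to 194409 in cKO TFH libraries. In non-TFH cells these loci stood at 9.82e+06, 16.5 and 0 FPKM in the WT libraries and at 0 in all 3 cKO libraries. Their part in the values of Cd44 was not tested.

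Of 21 genes of the TFH program, 14 passed the test higher (66.7% beside 19.1% of all tested genes) and 2 lower (9.52% beside 14.8%), and 7 were apart higher (33.3% beside 9.54%; Bcl6, Sh2d1a, Pou2af1, Tox, Tox2, Cd200 and Slamf6) and 1 lower (Irf4; 4.76% beside 7.18%). An unnamed locus over Tox stood at 318, 101 and 136 FPKM in WT TFH and 47.0 to 48.6 in cKO TFH libraries, opposite to the difference of Tox, which did not pass the test in TFH cells (0.36 log2, adjusted p 0.0564). The list median was 0.63 log2, against 0.034 over all tested genes. Bcl6, the repressor that directs TFH cells (chromosome 16, 23965049 to 23988782), stood at 32.3, 33.9 and 26.1 FPKM in the WT TFH libraries and at 52.3, 46.2 and 52.2 in the cKO TFH libraries. In non-TFH cells Bcl6 stood at 6.61, 6.62 and 5.56 FPKM in the WT libraries and at 10.3, 9.49 and 10.4 in the cKO libraries. The rise was 0.70 log2 in TFH and 0.61 in non-TFH cells. Tox2, a high mobility group factor, stood at 49.2, 68.9 and 56.7 FPKM in the WT TFH libraries and at 111, 265 and 171 in the cKO TFH libraries. In non-TFH cells Tox2 stood at 0.221, 0.358 and 0.097 FPKM in the WT libraries and at 3.87, 4.53 and 3.45 in the cKO libraries. Tox2 rose by 1.79 log2. Pou2af1, the coactivator OBF-1, also of B cells, ranged from 27.4 to 31.6 FPKM in WT TFH and from 105 to 156 in cKO TFH libraries, and from 4.28 to 4.89 in WT non-TFH and 6.14 to 7.89 in cKO non-TFH libraries. Sh2d1a, the SLAM adaptor SAP, ranged from 343 to 421 FPKM in WT TFH and from 948 to 1167 in cKO TFH libraries, and from 49.9 to 54.1 in WT non-TFH and 57.8 to 63.4 in cKO non-TFH libraries. Slamf6, a SLAM family receptor, ranged from 303 to 338 FPKM in WT TFH and from 369 to 558 in cKO TFH libraries, and from 74.8 to 88.9 in WT non-TFH and 164 to 189 in cKO non-TFH libraries. Sh2d1a had a value in 2 of the WT non-TFH libraries. These 3 genes rose by 1.34, 0.86 and 0.78 log2 in the order given. Summed B cell markers were lower in cKO TFH than in WT TFH libraries. Of 6 tested plasma cell markers, 4 passed the test higher and 1 lower (66.7% and 16.7% beside 19.1% and 14.8% of all tested genes). Among them Jchain was apart higher, at 11.1 to 16.6 FPKM in WT TFH and 22.8 to 34.7 in cKO TFH libraries. In non-TFH cells Jchain stood at 0.693 to 1.99 FPKM in the WT libraries and at 11 to 22.2 in the cKO libraries. The part of B cells or plasma cells in Pou2af1 was not tested. Cd200, counted here and among 14 co-inhibitory and regulatory receptors (6 higher and 4 lower by the test, with 7.14% apart higher and 14.3% lower), rose by 0.79 log2, and of that list Cd5 and Lair1, an inhibitory collagen receptor (-1.65 log2), were apart lower.

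**Figure D4:**
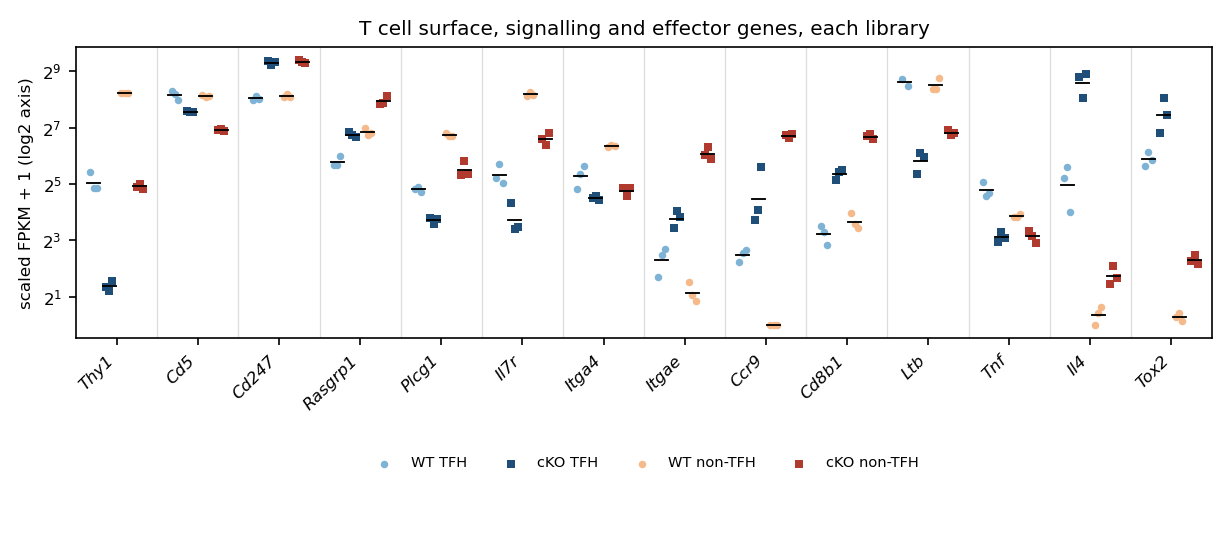
Scaled FPKM + 1 on a log2 axis in each library for 14 T cell surface, signalling and effector genes, with circles for WT, squares for cKO and a black bar at each group's mean on the log scale; missing values are left out. Thy1, Cd5, Plcg1, Il7r, Itga4, Ltb and Tnf are lower in cKO in both cell types, and Cd247, Rasgrp1, Itgae, Ccr9, Cd8b1, Il4 and Tox2 are higher.

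Il4, the main type 2 cytokine (chromosome 11, 53612461 to 53618689), stood at 36.1, 48 and 15.1 FPKM in the WT TFH libraries and at 446, 263 and 477 in the cKO TFH libraries. In non-TFH cells Il4 stood at 0, 0.338 and 0.573 FPKM in the WT libraries and at 1.72, 3.28 and 2.17 in the cKO libraries. Il4 was near 0 in WT non-TFH cells and higher in every cKO library of both cell types, with a mean difference of 2.51 ± 0.27 log2 (SE; adjusted p 3.64e-05). The counts that follow stand beside 19.1% higher and 14.8% lower by the test, and 9.54% and 7.18% apart, over all tested genes. The type 2 list had 7 of 9 genes higher (77.8%) and 1 lower (11.1%) by the test, of which Il4 and Il9r, the IL-9 receptor (1.03 log2), were apart. The test is of the mean contrast, and the median of this list was -0.10 log2 in TFH but 1.43 in non-TFH cells. Of 18 type 1 genes 3 were higher (16.7%, near the share of all genes) and 7 lower (38.9%), and Stat4, the signal transducer of IL-12 (-0.37 log2), and Runx3 were apart lower. In the type 17 list 4 of 7 were higher (57.1%), with Il22, a cytokine listed at 0 in the WT non-TFH libraries, and Il1r1, the IL-1 receptor (1.51 log2), apart. The regulatory T cell list had 6 of 13 higher (46.2%) and 2 lower (15.4%, near the share of all genes), with Itgae, Gpr83, a neuropeptide receptor (1.14 log2), and Capg, an actin-capping protein (0.36 log2), apart higher. Of 18 secreted cytokines 3 were higher (16.7%) and 7 lower (38.9%), and 11.1% were apart higher and 16.7% lower. Ltb, lymphotoxin beta, a cytokine for lymphoid tissue structure, stood at 425 and 354 FPKM in the 2 WT TFH libraries with a value and at 40.1, 67.8 and 61.3 in the cKO TFH libraries. In non-TFH cells Ltb stood at 332, 329.8 and 426 FPKM in the WT libraries and at 119.9, 105 and 110.4 in the cKO libraries. Ltb kept a wide gap between WT and cKO in both cell types. Tnf, tumour necrosis factor, stood at 32.8, 22.5 and 24.5 FPKM in the WT TFH libraries and at 6.79, 8.79 and 7.59 in the cKO TFH libraries. In non-TFH cells Tnf stood at 13.1, 13.3 and 14.4 FPKM in the WT libraries and at 9.13, 7.99 and 6.53 in the cKO libraries. Ltb fell by 2.24 and Tnf by 1.19 log2, while Csf1, the macrophage growth factor, rose by 0.77. Cytokine receptors and STAT genes had 8 of 22 higher (36.4%) and 6 lower (27.3%), and those apart were all lower (Il7r, Stat4 and Socs2, a cytokine signalling inhibitor at -0.90 log2).

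The cell cycle list had the largest share of members apart among the 22 lists. By the test 24 of 28 were higher and the other 4 did not pass, and 20 (71.4%) were apart higher, against 9.54% of all tested genes. The list median was 0.90 log2. Birc5, survivin, a subunit of the chromosomal passenger complex, stood at 63.6, 44.6 and 51.5 FPKM in the WT TFH libraries and at 127, 116 and 125 in the cKO TFH libraries. In non-TFH cells Birc5 stood at 1.16, 1.08 and 0.933 FPKM in the WT libraries and at 4.71, 5.3 and 3.91 in the cKO libraries. Birc5 was far lower in non-TFH than in TFH cells and rose in both. Top2a, topoisomerase II alpha, stood at 32.7, 27.2 and 34.8 FPKM in the WT TFH libraries and at 80.3, 58.3 and 63.4 in the cKO TFH libraries. In non-TFH cells Top2a stood at 3.0, 2.59 and 2.77 FPKM in the WT libraries and at 8.01, 11.3 and 7.91 in the cKO libraries. Top2a rose by 1.23 log2 on average. Ccnb1, cyclin B1, ranged from 19.6 to 43.3 FPKM in WT TFH and from 71.9 to 84.1 in cKO TFH libraries, and from 0.404 to 0.573 in WT non-TFH and 2.21 to 3.5 in cKO non-TFH libraries. Cdk1, the mitotic kinase, ranged from 10.6 to 46.5 FPKM in WT TFH and from 55.6 to 83.8 in cKO TFH libraries, and from 0.247 to 0.416 in WT non-TFH and 0.921 to 2.08 in cKO non-TFH libraries. Mki67, the proliferation antigen Ki-67, ranged from 8.89 to 11.4 FPKM in WT TFH and from 13.8 to 19 in cKO TFH libraries, and from 0.92 to 1.41 in WT non-TFH and 3.62 to 6.19 in cKO non-TFH libraries. Among the WT TFH libraries, replicate 1 stood above the other two in Cdk1. Tk1, thymidine kinase 1, was listed at 0 in the WT non-TFH libraries and ranged from 2.36 to 6.39 FPKM in cKO non-TFH libraries. Glycolysis and hypoxia genes had 11 of 19 higher (57.9% beside 19.1% of all tested genes) and 2 lower (10.5% beside 14.8%) by the test. Their median was 0.65 log2 in TFH but -0.018 in non-TFH cells. Gapdh, glyceraldehyde-3-phosphate dehydrogenase, ranged from 899 to 1105 FPKM in WT TFH and from 1654 to 1932 in cKO TFH libraries, and from 311 to 324 in WT non-TFH and 370.3 to 454 in cKO non-TFH libraries. Gapdh rose by 0.64 log2. Tpi1, triosephosphate isomerase, ranged from 103 to 105 FPKM in WT TFH and from 346 to 460.4 in cKO TFH libraries, and from 18.3 to 21 in WT non-TFH and 31.1 to 38.5 in cKO non-TFH libraries. Pdk1, a kinase that restrains pyruvate dehydrogenase, ranged from 9.78 to 14 FPKM in WT TFH and from 5.18 to 8.83 in cKO TFH libraries, and from 99.5 to 105 in WT non-TFH and 22.7 to 27.3 in cKO non-TFH libraries. Pdk1 and Slc2a3, a glucose transporter, fell, by 1.33 and 1.68 log2. Egln3, a hypoxia-inducible hydroxylase, rose by 1.09 log2.

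Of 24 immediate early genes 5 passed the test higher and 5 lower, 20.8% each way beside 19.1% and 14.8% of all tested genes. The shares apart, 8.33% each way, were near the 9.54% and 7.18% of all genes, and the list median was -1.22 log2 in TFH but 1.24 in non-TFH cells, so the medians of this family had opposite signs. Within it Ier3 and Egr2 (0.73 log2) were apart higher, and Dusp2, a MAP kinase phosphatase with a value in 2 WT TFH libraries (-1.03 log2), and Egr3 were apart lower. Egr3 did not pass the test, at -0.30 ± 0.11 log2 (SE; adjusted p 0.0561), and did pass it without cKO TFH replicate 1. Of 17 interferon response genes 5 were higher (29.4%) and 2 lower (11.8%) by the test, and 23.5% were apart higher and 5.88% lower. Oasl2, an antiviral oligoadenylate synthetase-like protein, ranged from 4.3 to 6.01 FPKM in WT TFH and from 20.1 to 22.3 in cKO TFH libraries, and from 9.6 to 14 in WT non-TFH and 38.1 to 57.2 in cKO non-TFH libraries. Oas2, an oligoadenylate synthetase, ranged from 2.06 to 3.79 FPKM in WT TFH and from 0 to 0.245 in cKO TFH libraries, and from 28.7 to 47.9 in WT non-TFH and 10.2 to 17.1 in cKO non-TFH libraries. Mx1, an antiviral GTPase, and Isg20, an exonuclease, rose by 1.27 and 0.62 log2, whereas Oas2 fell. Isg20 had a value in 2 libraries of each cKO group. In the MHC class II pathway 1 of 8 was higher (12.5%) and 3 were lower (37.5%) by the test. The median of this list was -1.08 log2 in TFH but 0.44 in non-TFH cells. H2-Ob, a chain of H2-O, which restrains peptide loading, stood at 10.1, 16.6 and 15.5 FPKM in the WT TFH libraries and at 4.14, 4.43 and 2.89 in the cKO TFH libraries. In non-TFH cells H2-Ob stood at 35.4, 32.3 and 35 FPKM in the WT libraries and at 0.293, 0.616 and 0.51 in the cKO libraries. H2-Ob fell by 3.11 log2. H2-Oa, its partner chain, ranged from 20.1 to 30.3 FPKM in WT TFH and from 5.21 to 7.12 in cKO TFH libraries, and from 2.92 to 6.95 in WT non-TFH and 1.26 to 2.39 in cKO non-TFH libraries. Ctss, cathepsin S, which degrades the invariant chain, ranged from 236 to 278 FPKM in WT TFH and from 99.2 to 116 in cKO TFH libraries, and from 142 to 148 in WT non-TFH and 114 to 126 in cKO non-TFH libraries. Macrophage and B cell markers were lower with them in cKO TFH libraries, and their part was not tested. In non-TFH libraries their sums were as given above. Gimap6, a GTPase of lymphocyte survival (-0.30 log2), was the 1 of 5 GIMAP genes called, 20% lower beside 14.8% of all tested genes. Of 6 Id and E proteins 3 were higher by the test (50% beside 19.1%) and none lower. Of these 6 only Tcf12, an E protein, was apart (16.7% beside 9.54%), and it rose by 0.81 log2.

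Of 15 tested ETS genes, Ets1 included, 6 passed the test higher (40% beside 19.1% of all tested genes) and 1 lower (6.67% beside 14.8%), and 5 were apart higher (Ets2, Fli1, Etv5, Erf and Spib) and 1 lower (Elk3), shares of 33.3% and 6.67% against 9.54% and 7.18% of all genes. Ets2, the closest relative of Ets1, stood at 10.2, 11.1 and 8.67 FPKM in the WT TFH libraries and at 19.8, 26.6 and 30.4 in the cKO TFH libraries. In non-TFH cells Ets2 stood at 15.2, 18.1 and 15.4 FPKM in the WT libraries and at 35.8, 32 and 37.1 in the cKO libraries. Ets2 rose by 1.26 log2 in TFH and 1.06 in non-TFH cells. Etv5, a member of the PEA3 subfamily, stood at 6.11 and 5.96 FPKM in the 2 WT TFH libraries with a value and at 15.2, 14 and 17 in the cKO TFH libraries. In non-TFH cells Etv5 stood at 0.807, 0.887 and 0.707 FPKM in the WT libraries and at 6.6, 6.65 and 7.01 in the cKO libraries. Etv5 rose in both cell types. Fli1, an ETS factor next to Ets1 on chromosome 9, ranged from 24.7 to 31.1 FPKM in WT TFH and from 40.2 to 46.3 in cKO TFH libraries, and from 28.6 to 30.2 in WT non-TFH and 34.6 to 36 in cKO non-TFH libraries. Erf, a repressor of the family, ranged from 0.0778 to 0.221 FPKM in WT TFH and from 0.394 to 0.665 in cKO TFH libraries, and from 7.79 to 15.6 in WT non-TFH and 15.9 to 31.4 in cKO non-TFH libraries. Spib, an ETS factor of B cells and plasmacytoid dendritic cells, ranged from 1.41 to 3.4 FPKM in WT TFH and from 4.72 to 11 in cKO TFH libraries, and from 0.0251 to 0.138 in WT non-TFH and 0.254 to 0.325 in cKO non-TFH libraries. Fli1, Erf and Spib rose by 0.41, 0.72 and 0.77 log2, and Elk3 fell by 0.44. Erf lost its call without WT TFH replicate 3 and WT non-TFH replicate 1 together.

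**Figure D5:**
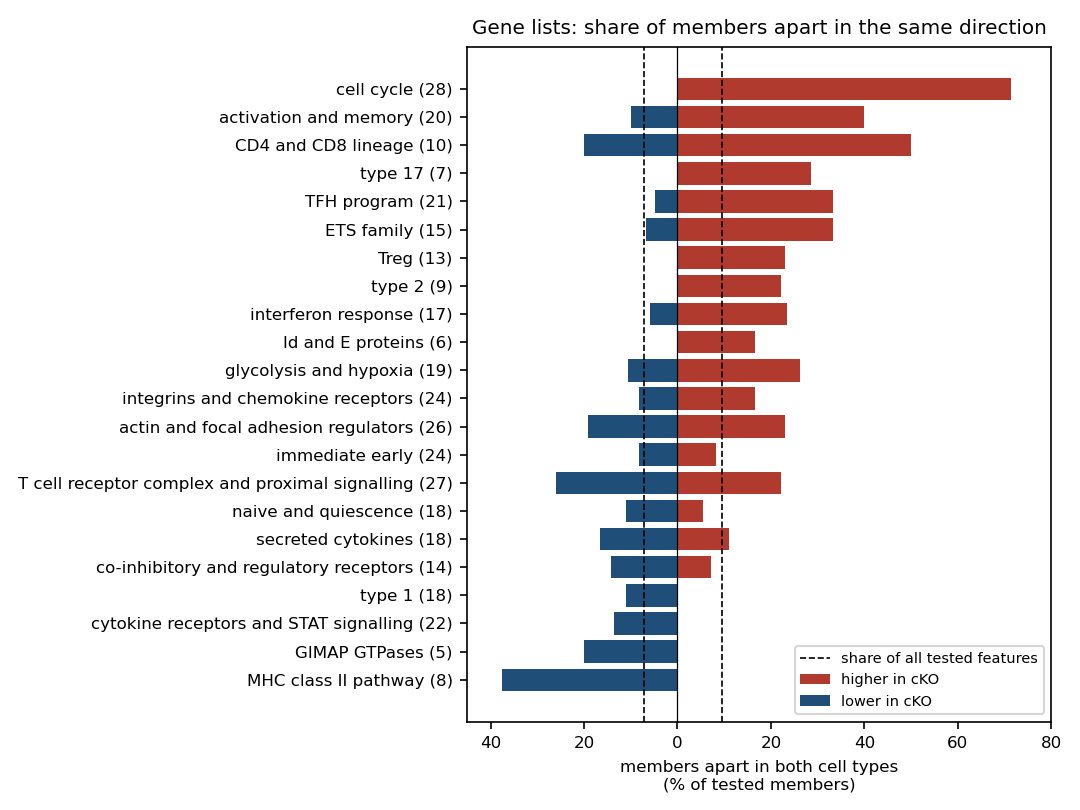
Share of each list's tested members whose cKO and WT libraries are apart in the same direction in both cell types, higher to the right and lower to the left, with the number of tested members in brackets and dashed lines at the shares of all tested genes (9.54% higher, 7.18% lower). The cell cycle list reaches 71.4% on the higher side, and the MHC class II list, with 8 members, 37.5% on the lower side.

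Among the 1842 genes apart, 345 also differed in size between the cell types (limma test of the difference between both cell types' differences). This share is near that of all tested genes, of which 1915 of 11022 (17.4%) passed this test. The difference was larger in TFH cells in 182 and larger in non-TFH cells in 163. Fbln2, fibulin-2, stood at 0, 0 and 0.248 FPKM in the WT TFH libraries and at 1.67, 3.41 and 2.85 in the cKO TFH libraries. In non-TFH cells Fbln2 stood at 0, 0.0158 and 0 FPKM in the WT libraries and at 0.0634, 0.0667 and 0.0507 in the cKO libraries. Fbln2 stayed below 0.1 FPKM in all non-TFH libraries. Ctdp1, a phosphatase of RNA polymerase II, stood at 2.21, 6.05 and 3.48 FPKM in the WT TFH libraries and at 16.9, 17 and 21.7 in the cKO TFH libraries. In non-TFH cells Ctdp1 stood at 15.3, 15.3 and 16.9 FPKM in the WT libraries and at 18.5, 17.1 and 18.2 in the cKO libraries. Both rose in TFH cells and did not pass the test in non-TFH cells, with 1.73 and 2.06 log2 against 0.077 and 0.17. Gm4951 (-1.60 against -0.12 log2), B4galt4, a galactosyltransferase (-2.11 against -0.15), and Dctn4, a dynactin subunit (-1.10 against -0.073), fell in TFH cells and did not pass the test in non-TFH cells. The call of Dctn4 was lost without WT TFH replicate 3 and WT non-TFH replicate 1 together. Epsti1, an interferon-induced gene, stood at 45.8, 43.4 and 40 FPKM in the WT TFH libraries and at 47.4, 50 and 55.2 in the cKO TFH libraries. In non-TFH cells Epsti1 stood at 58.1, 60 and 50.5 FPKM in the WT libraries and at 178, 168 and 163 in the cKO libraries. Epsti1, which did not pass the test in TFH cells, differed by 0.24 log2 in TFH and 1.58 in non-TFH cells. Sh3pxd2a, the podosome scaffold TKS5, stood at 0.153, 0.257 and 1.23 FPKM in the WT TFH libraries and at 0.0761, 0.0817 and 0.0478 in the cKO TFH libraries. In non-TFH cells Sh3pxd2a stood at 9.31, 9.9 and 9.4 FPKM in the WT libraries and at 0.255, 0.243 and 0.171 in the cKO libraries. Sh3pxd2a fell in non-TFH cells and did not pass the test in TFH cells. Also past the test in non-TFH cells alone were Zfhx3, a homeodomain factor that rose by 1.11 log2 there, and Plxnd1, a semaphorin receptor, and Tmem108, which fell by 1.40 and 1.40 log2.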

How the data were processed

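The authors' deposited values are FPKM per gene, in a Cufflinks table for each library. The tools named in the submitters' processing notes are cutadapt, FastQC, Bowtie2, TopHat2, Cufflinks and Cuffdiff, with build mm10 and no versions. Libraries were poly(A)-selected and stranded, per the labels' protocols. The tables hold no counts, so depth is unknown and no counting intervals are given. Unnamed loci and entries not marked OK were left out. Symbols listed separately in 2 or more libraries of each group were features (22304), and symbols sharing an entry were summed (795); both are called genes. FPKM were scaled by the median ratio over 7160 features (factors 0.852 to 1.13); levels given are scaled. Values were tested as log2(FPKM + 1), which understates changes of low genes, with limma 3.58.1 (R 4.3.3; 4 group means, variance trend, robust moderation) and Benjamini-Hochberg adjustment at 0.05, and the fit was tested on simulated data. Python 3.11.15, pandas 2.3.3, numpy 2.4.6 and matplotlib 3.10.9 were used.

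Genes named were the 15 higher and 15 lower with the largest smaller change of both cell types, 3 and 3 listed at 0 in a group, 5 and 5 by the ratio of both differences, and up to 4 apart per list, by mean change. Bcl6, Fli1, Elk3, Cd2, Cd3g, Cd4, Cd44, Cd8a, Zbtb7b, Top2a, Mki67, Gapdh, Coro1a, Vav1, Nfatc2, S100a11, Slamf6, Xist, Ddx3y, Klrd1, Klrk1, Ncr1, Gzmb, Gzma, Prf1, Eomes, Nkg7, Jchain and Pdcd1, and list members given without values, were named after their values were seen. Members, the 22 gene lists and 12 marker lists were chosen with earlier results of these data known. Same-numbered libraries did not deviate together (correlations -0.035 to 0.059 over 18 pairs), so numbers were not used as pairs. Alternatives covered the pseudocount, filters, scaling, joined entries, blocks, weights, moderation and each library left out.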

Additional observations from a re-analysis of the deposited data

Results flagged for a closer look

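The difference cKO minus WT was of unequal size in TFH and non-TFH cells in 50 of the 127 genes named with values, by limma's test of the difference of both differences (adjusted p under 0.05). Values are the TFH difference minus the non-TFH difference on the log2(FPKM + 1) scale, and no explanation was tested.

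Among genes that rose by the test in both cell types, Ddc (1.59), Cd200 (0.77), Pou2af1 (1.63), Il4 (2.26), Itgam (2.46), Tpi1 (1.14), Tcf12 (0.75) and Gapdh (0.49) rose more in TFH cells, and Anxa2 (-1.75), Cela1 (-1.37), Drc1 (-3.53), Grhl3 (-1.63), Etv5 (-0.89), Lgals3 (-4.77), Lgals1 (-1.59), S100a6 (-1.67), Itgae (-3.44), Cd8b1 (-0.88), Ccr9 (-4.72), Tns4 (-4.85), Egr2 (-0.72), Cd3g (-0.37) and Slamf6 (-0.65) more in non-TFH cells. Passing the test in TFH cells alone, Ctdp1 (1.89), Fbln2 (1.65), Sh2d1a (1.24) and Il1r1 (2.27) rose there. Passing it in non-TFH cells alone, Zfhx3 (-1.01), Epsti1 (-1.35), Tox (-0.58), Tk1 (-1.83) and Mx1 (-1.16) rose there. Ccr9, Tk1 and Grhl3 are listed at 0 in a whole WT group.

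Among genes that fell by the test in both, Gmfg (-1.29), Ltb (-1.11), Tnf (-0.93) and Ctss (-0.94) fell more in TFH cells, and Atp1b1 (2.07), Cd5 (0.62), Itga4 (0.81), Pdk1 (1.36), H2-Ob (2.95) and Nfatc2 (0.77) more in non-TFH cells. Passing in TFH cells alone, Gm4951 (-1.48), B4galt4 (-1.96), Dctn4 (-1.03) and Irf4 (-1.28) fell there, and passing in non-TFH cells alone, Plxnd1 (1.24), Tmem108 (1.19) and Sh3pxd2a (2.64) fell there. Cd4, which is not among the genes apart and passed the test in neither cell type, had a value of -0.89. The smallest adjusted p was 6.72e-08 (Tns4) and the largest 0.0498.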

How the results depend on the processing

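The count of 3727 genes past the test was 2413 with each library's count of unnamed loci in the model, a choice added after seeing the data, and 878 when the cell types were fitted separately and both had to pass. Leaving out each library gave 3168 to 3820. The replicate block gave 3816 calls with the number within genotype and 3506 with the number across groups, and neither block changed a call among the named genes. Ets1 (0.17 log2, adjusted p 0.0819) passed at 0.21 without scaling (adjusted p 0.0373), at 0.20 without WT TFH replicate 3 and at 0.21 without cKO TFH replicate 1, within a range of 0.12 to 0.21 over the libraries left out; adjusted p over its alternatives ran from 0.0273 to 0.787. The counts of genes apart (1842), split 1225 higher to 688 lower without scaling and 936 to 819 with quantile normalization, and of genes with unequal differences (1915) stayed within 1.5 times in every alternative run. Of 127 named genes none reversed under the 26 alternatives run, and 12 lost their call with the covariate (B4galt4, Dctn4, Erf, Bach2, Runx3, Il22, Capg, Socs2, Cdk1, Isg20, Cd8a and Coro1a). Without WT TFH replicate 3 and WT non-TFH replicate 1 together, an added choice, 4 did (Dctn4, Erf, Bach2 and Cd8a), 1309 genes were apart higher and 972 lower. Erf also lost it with array weights. Egr3 passed under 4 alternatives. Depth is unknown, so low genes carry an unknown counting error.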
